A study of Homo sapiens with 6 samples.

Results

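The kallikrein-related peptidases examined here were KLK5, KLK6, KLK7, KLK8, KLK10, KLK11, KLK13 and KLK14. They were taken as the array spots named for these 8 genes, out of 34423 gene names on the array, and they came to 20 spots of 11 probes per array. The tumors were subcutaneous xenografts of BxPC-3, an epithelial cell line from a human pancreatic adenocarcinoma, grown in female BALB/c (nu/nu) mice that were 8 to 10 weeks old when the experiment began. Control tumors (n = 3) came from mice given the vehicle alone, and DFX-treated tumors (n = 3) from mice given 200 mg/kg deferasirox (DFX), an oral iron chelator, by gavage every second day for 21 days once tumors had reached 150 mm3. All tumors stemmed from 1 cell line in athymic mice, which lack mature T cells but keep other leukocytes and their own stroma and vessels, so the RNA of each tumor could also hold mouse transcripts. One-color human 60-mer arrays were used, 1 tumor per array. All 6 arrays lay on 1 slide, row 1 holding the controls and row 2 the treated tumors, so row and treatment cannot be told apart.

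Kallikrein-related peptidases are secreted serine proteases that are made as inactive proenzymes and switched on when another protease clips off a short propeptide. In skin, KLK5, KLK7 and KLK14 cleave the proteins that hold corneocytes together, in a cascade restrained by the inhibitor encoded by SPINK5, and several family members cleave the protease-activated receptor encoded by F2RL1. Their genes lie side by side on the long arm of chromosome 19, and several are expressed in ductal and squamous epithelia and in carcinomas, pancreatic carcinoma included.

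The array read these related genes through short stretches of sequence. The 11 probes lay on the minus strand of chromosome 19, from 51446866 to 51581312 in the hg19 coordinates of the files, which is 134.4 kb, and 10 of them matched 1 unbroken interval. The longest run of bases that any of them shared with a probe of another kallikrein gene was 7 to 9 bases out of 60. Exon and UTR assignments were not made, as no hg19 gene models were used here. The probes of KLK5, KLK8 and KLK14 are printed 5′ to 3′ because they show how the paralogs resemble and differ from each other, with capitals for TGGAT, a run that all of them carry. The KLK5 probe lay at chr19:51446866-51446925, the KLK8 probe at chr19:51499316-51499375 and the KLK14 probe at chr19:51581253-51581312.
KLK5: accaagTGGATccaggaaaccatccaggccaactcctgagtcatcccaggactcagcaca
KLK8: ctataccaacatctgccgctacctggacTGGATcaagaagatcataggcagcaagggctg
KLK14: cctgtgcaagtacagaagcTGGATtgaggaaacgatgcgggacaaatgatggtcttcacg
TGGAT occurred on the probe strand of 3 of the 11 probes, of 2 of the 9 probes of the other kallikrein genes (KLK1 and KLK15) and of 7.93% of all 50599 probes, or 13.8% of all probes on either strand. Shared runs between these probes and those of other kallikrein genes stayed under 10 bases. The probes were not compared with the full transcripts of the other genes, so whether a probe also binds a paralog was not tested.

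KLK13 had 3 probes, and the ones with signal are shown because they read separate stretches of the transcript. A_24_P416645 lay at chr19:51561850-51561909. A_24_P333697 had a listed interval of 399 bases, chr19:51563316-51563714, although the probe has 60 bases. Capitals mark a match to GCNCACTGT (N is any base), a codon pattern of the conserved stretch at the catalytic histidine of this protease fold.
A_24_P416645: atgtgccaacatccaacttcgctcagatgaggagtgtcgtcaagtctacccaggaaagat
A_24_P333697: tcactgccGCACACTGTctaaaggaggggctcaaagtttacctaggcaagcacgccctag
That pattern was found on the probe strand of 0.0791% of all probes, or 0.148% on either strand, and in no other probe of these 8 genes. The third probe, A_33_P3251065, was designed to another KLK13 transcript.

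Levels are given as quantile-normalized log2 intensities, on which a difference of 1 is a factor of 2, and levels of different probes are not comparable with each other. A spot was well above background where the scanner software flagged it so, and a probe was tested where its signal differed from background at p under 0.05 on all 6 arrays. Between 50.3% and 56.5% of all probes were well above background on an array, with the lowest share on the array of DFX-treated tumor 2, and no spot was saturated. KLK6, KLK8, KLK10, KLK11 and KLK13 were well above background in all 6 tumors. KLK7 and KLK14 were so in some tumors only and passed the detection test, and KLK5 did not pass it, so 7 of the 8 genes and 10 of the 11 probes were tested.

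Ductal epithelial markers (KRT19, KRT7, EPCAM, MUC1, KRT8 and KRT18) were well above background in every tumor for 6 of 6 genes, and the basal squamous markers for 5 of 5. Of the pancreatic acinar markers 1 of 4 was so, with CPA1 and PNLIP on no array. Markers of fibroblasts were well above background in all tumors for 4 of 6 genes (PDGFRB in none), of leukocytes for 3 of 5 (CSF1R in none) and of endothelium for 3 of 4 (KDR in none). On human probes, transcript from host cells and from BxPC-3 cells cannot be told apart.

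KLK10 was the one member whose groups did not overlap. KLK10, once called normal epithelial cell-specific 1, is described as lost in some breast carcinomas and abundant in pancreatic ones. Its probe (A_33_P3417650, chr19:51516031-51516090) read 8.07, 7.68 and 8.37 in control tumors 1 to 3 and 8.44, 9.12 and 8.59 in DFX-treated tumors 1 to 3. The lowest DFX-treated tumor was 0.063 above the highest control tumor, and DFX-treated tumor 2 was the highest. The mean was 8.04 ± 0.35 (SD, n = 3) in controls and 8.72 ± 0.36 (SD, n = 3) in DFX-treated tumors, a log2 difference of 0.67 (SE 0.25, 95% interval 0.061 to 1.29), or 1.60-fold (1.04 to 2.44). By limma the unadjusted p was 0.0361 and the adjusted p 0.578, and the exact two-sided permutation p was 0.1, the smallest that 3 tumors against 3 allow.

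KLK10 was thus called at an unadjusted p under 0.05 and not after Benjamini-Hochberg adjustment, under which limma called 0 of the 31807 tested probes (lowest adjusted p 0.0675). The Kruskal-Wallis H test gave no adjusted call either, but it could hardly give one. Its lowest p with 3 tumors a group, 0.0495, leaves almost no room for adjustment. At the unadjusted threshold limma called 2675 probes, or 8.41%, and 1 of the 10 tested probes of the members. By gene, 1 of the 7 tested members was called, beside 7.98% of all 22718 tested genes. None of the members was called lower, beside 4.29% of all tested genes, and 3.68% of all tested genes were called higher. Groups that did not overlap were found for 1 of 7 members and for 15.4% of all tested genes, or 7.03% with the DFX-treated tumors higher, so these counts set nothing apart about the family. The call was lost without control tumor 1 (log2 difference 0.69), control tumor 2 (0.50), DFX-treated tumor 2 (0.47) or DFX-treated tumor 3 (0.74), and with median scaling of the arrays (0.57) or an unmoderated variance (0.67). Slide columns 2 and 4 held both groups, and KLK10 was higher in the DFX-treated tumor by 1.06 in column 2 and by 0.21 in column 4. The fit with the column as a block gave 0.64 and no call. Columns 1 and 3 held 1 tumor each, so this fit takes its difference from columns 2 and 4 alone and is no separate check. A call lost in it can reflect the fewer tumors compared.

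Of the 6 ductal markers, EPCAM, KRT8 and KRT18 differed in the same direction as KLK10 by their brightest probes, with groups that did not overlap. EPCAM read 13.39, 13.36 and 13.17 in control tumors and 13.78, 13.79 and 13.65 in DFX-treated tumors (log2 difference 0.43, called at the unadjusted threshold, limma). KRT8 (0.48) and KRT18 (0.27) were also called by these probes. Their other probes had overlapping groups and were not called, with differences of -0.12 (KRT8, A_33_P3372368), 0.24 (KRT8, A_24_P67395) and 0.15 (KRT18, A_24_P42136). MUC1 (0.71), KRT19 (0.022) and KRT7 (-0.17) had overlapping groups and were not called. The summed level of the 6 ductal markers was 19.23 in each control tumor and 19.26 to 19.29 in DFX-treated tumors on the log2 scale. The sum was taken on linear intensities, so KRT19, the brightest (18.44 to 18.54 over the 6 tumors), weighed most in it. At the top of the array quantile normalization sets a value by its rank, so this sum does not measure ductal content. The part of these markers in the KLK10 difference was not tested, and in bulk tumors fewer cells of a type cannot be told apart from less RNA per cell.

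**Figure D1:**
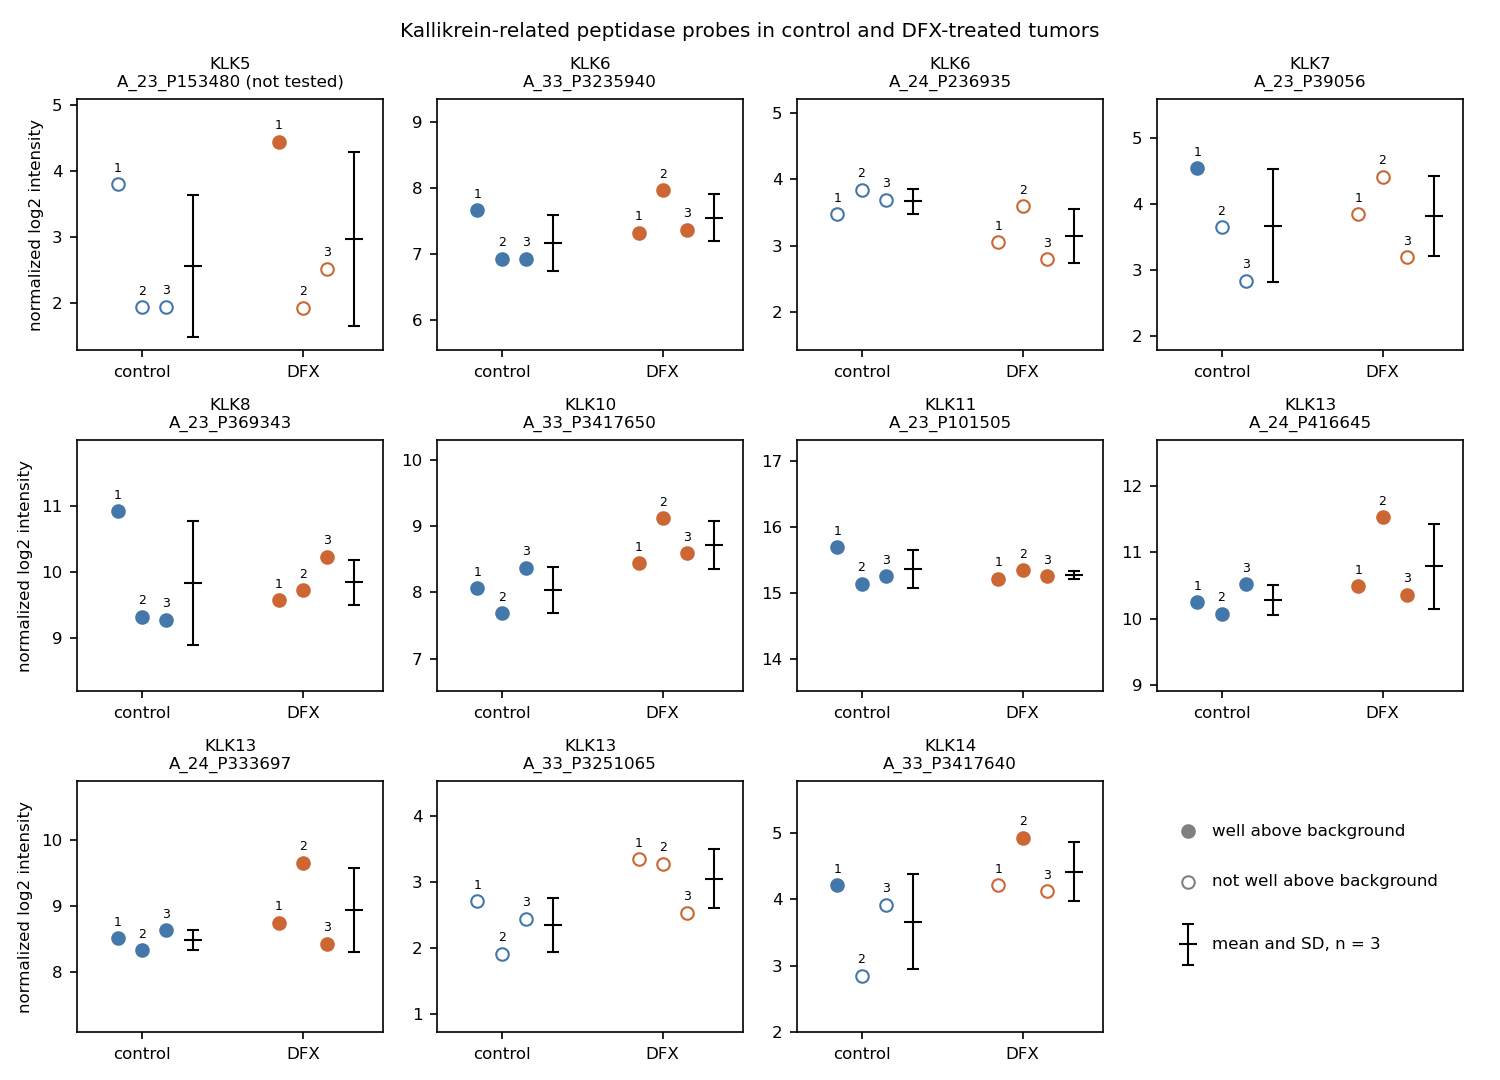
Normalized log2 intensity (y axis, spanning the same number of log2 units in each panel) of the 11 kallikrein-related peptidase probes in control and DFX-treated tumors (x axis), with tumor numbers beside the points, filled points for tumors well above background, open points for the others, and bars for mean and SD (n = 3). KLK10 is the panel with filled points that do not overlap between groups, KLK8 is highest in control tumor 1 at 10.91, and both KLK13 probes with filled points are highest in DFX-treated tumor 2.

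KLK13, a trypsin-like member of the family, was higher in 1 DFX-treated tumor. Its brightest probe, A_24_P416645, read 10.24, 10.07 and 10.51 in control tumors and 10.49, 11.53 and 10.36 in DFX-treated tumors. DFX-treated tumor 2 stood above the other tumors, and DFX-treated tumors 1 and 3 lay within the control range. The log2 difference was 0.51 (SE 0.33, 95% interval -0.30 to 1.32, adjusted p = 0.701, limma), and without DFX-treated tumor 2 it was 0.15. Within slide column 2 it was 1.28 and within column 4 it was -0.16.

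The separate probe A_24_P333697 repeated the order of the highest and lowest tumors. It read 8.51, 8.33 and 8.63 in control tumors and 8.75, 9.65 and 8.43 in DFX-treated tumors, a log2 difference of 0.45 (SE 0.32, adjusted p = 0.722, limma). Relative to the mean of the 6 tumors, DFX-treated tumor 2 was higher by 0.99 with the first probe and by 0.94 with the second, and control tumor 2 read -0.46 and -0.39. These are readings of the same RNA extracts and not further replicates. A_33_P3251065 was well above background on no array (1.91 to 3.34 over the 6 tumors), so no fold is given for it.

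KLK6, a trypsin-like protease known from the central nervous system and from several carcinomas, had 1 probe with signal. A_33_P3235940 (chr19:51461888-51461947) read 7.66, 6.93 and 6.93 in control tumors and 7.32, 7.96 and 7.37 in DFX-treated tumors. Control tumor 1 lay inside the DFX-treated range, and the other control tumors lay below it. With all tumors the log2 difference was 0.38 (SE 0.28, 95% interval -0.30 to 1.05, adjusted p = 0.728, limma), and with each tumor left out it ranged from 0.17 without DFX-treated tumor 2 to 0.62 without control tumor 1, where alone it passed the unadjusted threshold. The other KLK6 probe, A_24_P236935, was well above background on no array and read 2.79 to 3.84 over the 6 tumors. Its fitted difference went the other way (-0.52, adjusted p = 0.610, limma) and was -0.058 with normexp background correction. That is a difference between signals near background, so the higher direction of the gene rests on 1 probe.

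KLK14, a trypsin-like protease that activates other kallikreins in skin, was near the detection limit. A_33_P3417640 read 4.22, 2.85 and 3.92 in control tumors and 4.21, 4.93 and 4.12 in DFX-treated tumors, and it was well above background only in control tumor 1 and DFX-treated tumor 2. Control tumor 2 was the lowest, and control tumor 1 lay 0.095 above the lowest DFX-treated tumor. The log2 difference was 0.76 (SE 0.41, 95% interval -0.23 to 1.75, adjusted p = 0.654, limma). It was 0.36 without control tumor 2, 0.51 without DFX-treated tumor 2, 0.18 with normexp background correction and 0.16 with the raw mean signal.

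KLK8, or neuropsin, studied in brain and epidermis, had a mean difference near 0 and a wide spread. Its probe read 10.91, 9.32 and 9.27 in control tumors and 9.57, 9.73 and 10.22 in DFX-treated tumors. Control tumor 1 was the highest of all, and the other control tumors were the lowest. The log2 difference was 0.0049 (SE 0.48, adjusted p = 0.998, limma), with a 95% interval of -1.16 to 1.17. With 3 tumors a group, this interval still holds a change of about 2-fold in either direction. Without control tumor 1 the difference was 0.54, without control tumor 3 it was -0.28 and without control tumor 2 it was -0.25. The within-column values went opposite ways, -1.19 in column 2 and 0.95 in column 4.

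KLK11, a trypsin-like protease of brain, prostate and epithelia, had the most precise measurement, with 10 spots of 1 probe (A_23_P101505, chr19:51525626-51525685) on each array. The means of the spots were 15.69, 15.14 and 15.26 in control tumors and 15.22, 15.35 and 15.26 in DFX-treated tumors. The SD among the 10 spots of an array was 0.0315 to 0.0527, and all spots of control tumor 1 (15.63 to 15.73) lay above every spot of the other tumors. The log2 difference between the groups was -0.088 (SE 0.17, 95% interval -0.49 to 0.32, adjusted p = 0.896, limma), or 0.941-fold (0.710 to 1.25). Without control tumor 1 it was 0.076. The spread between tumors, and not that between spots, set this interval.

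**Figure D2:**
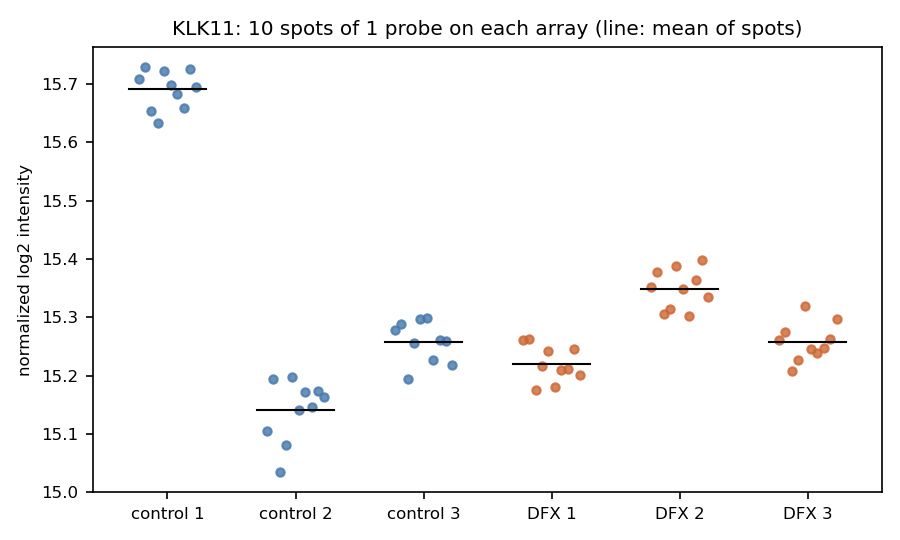
Normalized log2 intensity (y axis) of each of the 10 KLK11 spots in the 6 tumors (x axis), with a line at the mean of the spots. The spots of control tumor 1 lie between 15.63 and 15.73 and do not overlap those of any other tumor, and the DFX-treated tumors have means of 15.22, 15.35 and 15.26.

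KLK5 and KLK7, the trypsin-like and chymotrypsin-like proteases of skin shedding, were at or near background. KLK5 read 3.80, 1.94 and 1.95 in control tumors and 4.44, 1.93 and 2.52 in DFX-treated tumors, was well above background in DFX-treated tumor 1 alone and was not tested. KLK7 read 4.53, 3.64 and 2.83 in control tumors and 3.84, 4.41 and 3.19 in DFX-treated tumors, and was well above background in control tumor 1 alone. Its groups overlapped (adjusted p = 0.948, limma). For each of these genes 1 group held no tumor well above background, so no fold between groups is read from them. The fitted KLK7 value (0.14 on the log2 scale) is a difference between signals near background and is kept in the counts and in the plot of differences as such. The KLK5 probe is the first of the sequences printed above, and its signal was 1.93 to 4.44 over the 6 tumors.

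The fitted differences of the tested probes are set side by side in the plot of differences and intervals. Of the 7 tested genes, 6 were higher on average in DFX-treated tumors and 1, KLK11, was lower, with KLK8 at 0.0049 and KLK7 near background counted among the 6. The median of the 7 differences was 0.38, beside -0.012 over all 22718 tested genes, of which 10836 were higher and 11882 lower. The direction of KLK8 turned with 10 of 21 alternative settings and that of KLK7 with 4 of 20.

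**Figure D3:**
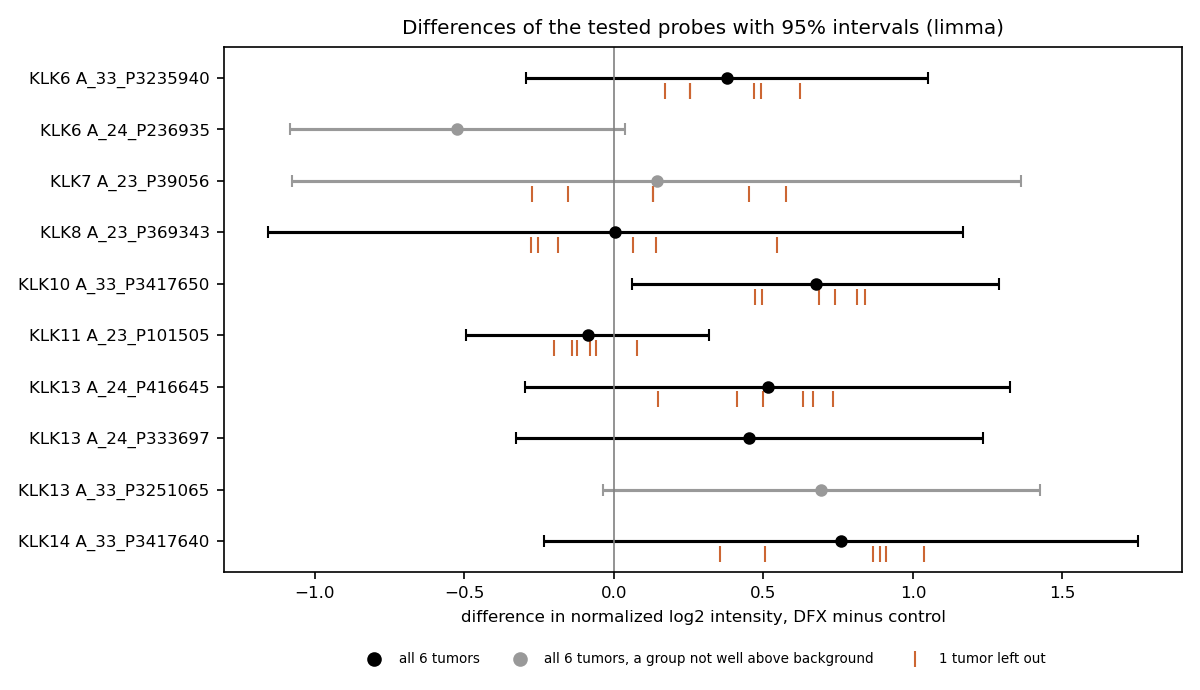
Difference in normalized log2 intensity, DFX-treated minus control tumors (x axis), of the 10 tested probes (y axis), with 95% intervals from limma, gray where a group was well above background in none of its tumors, and ticks for the brightest probe of each gene with 1 tumor left out in turn. The interval of KLK10, 0.061 to 1.29, is the one that leaves out 0, and that of KLK8 spans -1.16 to 1.17.

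Most kallikrein genes were highest in 1 of 2 tumors, which was noticed after the values were seen. Of the 12 kallikrein genes on the array with at least 1 tumor well above background, 5 were highest in control tumor 1 (KLK7, KLK8, KLK9, KLK11 and KLK12) and 5 in DFX-treated tumor 2 (KLK1, KLK6, KLK10, KLK13 and KLK14). KLK2 was highest in control tumor 3 and KLK5 in DFX-treated tumor 1. KLK5, KLK7 and KLK14 in this count were near background. How many of all genes peaked in each tumor was not computed, so the count sets nothing apart about the family. Neighbours within the cluster thus differed in the tumor where they peaked, with KLK10 highest in DFX-treated tumor 2 and the genes on either side of it, KLK9 and KLK11, highest in control tumor 1. DFX-treated tumor 2 was also the tumor with the lowest share of probes well above background, 50.3% against 53.9% to 56.5% in the others. The part of that share in these values was not tested.

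Of the genes with a pattern across the 6 tumors most like the mean of KLK6, KLK8, KLK10, KLK11 and KLK13, the first 5 of 14491 were SNORD105 (r = 0.987), GIN1 (r = 0.975), SELPLG (r = 0.972), SNORD41 (r = 0.971) and KRTAP9-1 (r = 0.969), which are Pearson correlations over 6 tumors given as a description. The mean pattern itself, relative to the average of the 6 tumors, was 0.23, -0.46 and -0.22 in control tumors and -0.078, 0.45 and 0.072 in DFX-treated tumors. These are the highest of many correlations over few points, and nothing further is read from them.

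Of the 7 other kallikrein genes, 5 were tested, 1 was higher and 4 were lower in DFX-treated tumors (median log2 difference -0.15). KLK1, which encodes tissue kallikrein, was the one called at the unadjusted threshold. It read 9.13, 9.02 and 9.07 in control tumors and 9.44, 9.70 and 9.24 in DFX-treated tumors, with no overlap, a log2 difference of 0.39 (SE 0.14, adjusted p = 0.578, limma). Its p rose above the threshold without control tumor 1 (difference 0.42), control tumor 2 (0.36), control tumor 3 (0.39), DFX-treated tumor 1 (0.40) or DFX-treated tumor 2 (0.27), and likewise with median scaling (0.28) or the slide column as a block (0.37). KLK2 (-0.13, adjusted p = 0.825, limma) and KLK9 (-0.15, adjusted p = 0.879) did not pass. KLK12, chosen after its values were seen, read 10.16, 7.89 and 8.79 in control tumors and 8.56, 8.76 and 8.81 in DFX-treated tumors, with control tumor 1 again the highest, and its difference was -0.24 with all tumors and 0.37 without control tumor 1.

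The inhibitors gave no call, with 4 of 9 genes tested, 2 higher and 2 lower. SPINK5, the inhibitor of skin kallikreins, read 15.23, 14.32 and 13.78 in control tumors and 15.23, 14.86 and 15.05 in DFX-treated tumors, a log2 difference of 0.60 (SE 0.37, adjusted p = 0.684, limma). Control tumor 1 lay with the DFX-treated tumors. SERPINA3, the gene of alpha-1-antichymotrypsin, read 7.05, 8.83 and 8.68 in control tumors and 8.44, 10.07 and 8.54 in DFX-treated tumors, a difference of 0.83 (SE 0.64, adjusted p = 0.737). It was lowest in control tumor 1 and highest in DFX-treated tumor 2. The lower ones were near background. SERPINC1, the gene of antithrombin, read 3.90, 3.87 and 4.30 in control tumors and 3.73, 3.68 and 3.65 in DFX-treated tumors, with no overlap (adjusted p = 0.610, limma), but it was well above background in control tumor 3 alone. SERPINF2, the gene of antiplasmin, read 4.09 to 4.28 in control tumors and 2.99 to 4.56 in DFX-treated tumors (adjusted p = 0.772).

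Substrates and receptors of kallikreins gave no call either among 11 tested genes of 13, of which 7 were higher and 4 lower (median 0.087). PLAU, which encodes the urokinase plasminogen activator, differed by -0.22 (SE 0.12, adjusted p = 0.671, limma), DSG2 by -0.19 (SE 0.12, adjusted p = 0.689) and DSG3 by -0.15 (SE 0.16, adjusted p = 0.808), the desmogleins being adhesion proteins of desmosomes. The groups of DSG2 did not overlap, and those of PLAU and DSG3 did. The receptor gene F2RL1, chosen after its values were seen, read 10.52, 10.82 and 11.31 in control tumors and 10.78, 10.89 and 10.92 in DFX-treated tumors, with overlapping groups.

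Among the 7 tested of 8 genes for serine proteases, most of them membrane-bound, and their inhibitors, 5 were higher and 2 lower. TMPRSS2 was called at the unadjusted threshold. TMPRSS2, a transmembrane serine protease under androgen control in prostate, read 9.26, 9.70 and 9.24 in control tumors and 10.62, 9.81 and 10.63 in DFX-treated tumors. The groups did not overlap, and DFX-treated tumors 1 and 3 were the highest. The log2 difference was 0.96 (SE 0.27, adjusted p = 0.514, limma). ST14, the gene of matriptase, differed by 0.25 (SE 0.14, adjusted p = 0.659) and was not called, although its groups did not overlap either. Groups did not overlap for 15.4% of all tested genes. PRSS8, the gene of prostasin, differed by 0.32 (SE 0.25, adjusted p = 0.739) and PRSS22 by 0.12 (SE 0.14, adjusted p = 0.822).

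Of 14 tested genes of epidermal differentiation among 16 listed, 5 were higher and 9 lower (median -0.29), and FLG was called at the unadjusted threshold as lower. FLG, the gene of filaggrin, whose precursor is processed by proteases in skin, read 9.74, 9.77 and 9.59 in control tumors and 8.99, 8.77 and 9.15 in DFX-treated tumors, a log2 difference of -0.73 (SE 0.14, adjusted p = 0.513, limma). The FLG call was lost with the slide column as a block (-0.70), a fit that compares the groups within columns 2 and 4 only. SPRR3 differed by -0.71 (SE 0.38, adjusted p = 0.650), CALML5 by -0.87 (SE 0.46, adjusted p = 0.650) and SPRR2A by 0.58 (SE 0.36, adjusted p = 0.685). Control tumor 1 was the highest tumor for 9 of 15 genes of this list with any tumor well above background, DFX-treated tumor 3 for 4 and control tumor 2 for 2. The same share over all genes was not computed. Chosen after their values were seen, LOR read 6.71 in control tumor 1 and at most 3.09 elsewhere, KRTDAP read 9.83 and 4.69 to 5.48 elsewhere, and SBSN read 8.84 and 3.31 to 6.33 elsewhere. Control tumor 1 was thus high in KLK8, KLK11 and KLK12 and in LOR, KRTDAP and SBSN, picked late markers of keratinocyte differentiation. IVL (8.91) and CNFN (10.87) were also highest in control tumor 1, and some other genes of the list did not follow. CASP14 read 3.55 in control tumor 1 and 4.52 and 4.36 in control tumors 2 and 3, and only these last were well above background. FLG was not raised in control tumor 1, and SPRR2A and TGM1 were highest in DFX-treated tumor 3. The part of the epidermal genes in the KLK8 and KLK11 values was not tested.

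**Figure D4:**
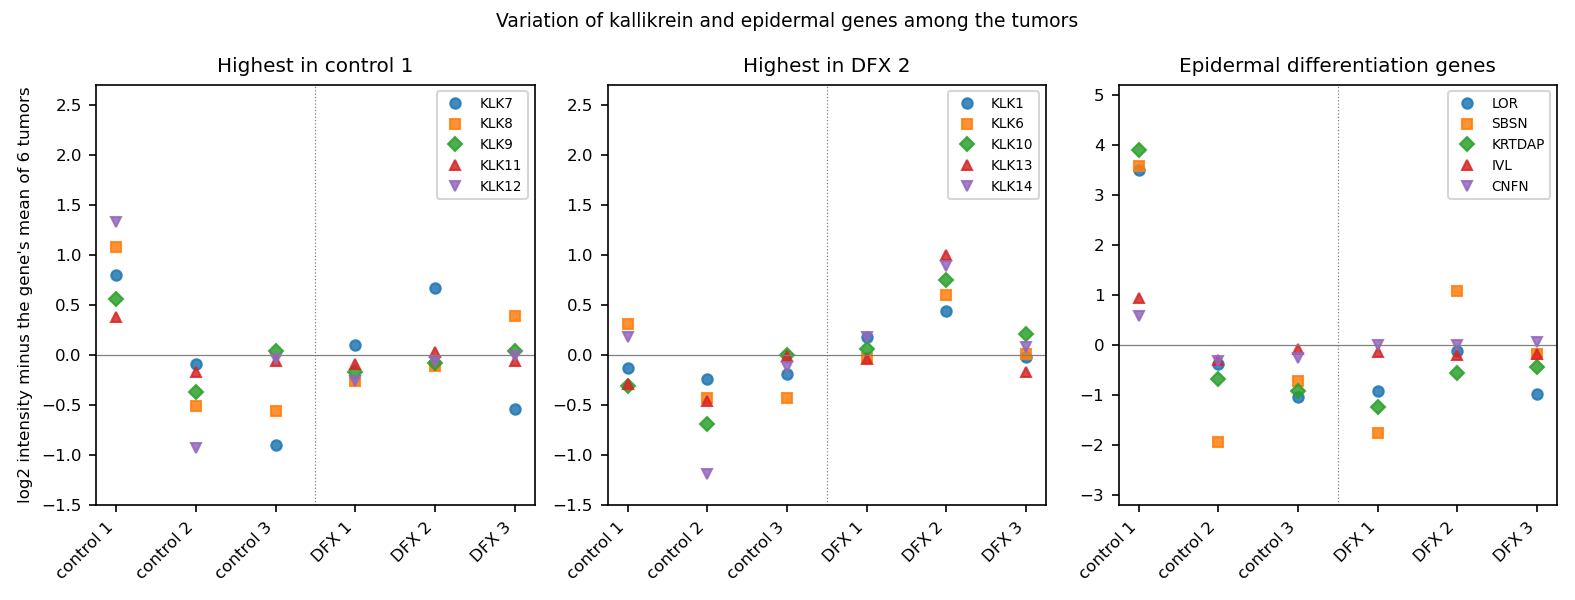
Log2 intensity minus the mean of the 6 tumors (y axis) for 5 kallikrein genes highest in control tumor 1, 5 highest in DFX-treated tumor 2, and 5 genes of epidermal differentiation chosen after their values were seen (3 panels, with a wider y axis in the last), by tumor (x axis). KRTDAP, SBSN and LOR lie more than 3 above their means in control tumor 1, where KLK8 and KLK12 lie more than 1 above theirs.

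The genes around the cluster gave a reference for the region. Of 26 tested genes other than kallikreins with a probe within 500 kb of the outermost probes on chromosome 19, 12 were higher and 14 lower in DFX-treated tumors, with a median log2 difference of -0.0086. The one called, C19orf81, was well above background on no array. VSIG10L, chosen by the same rule, differed by -0.40 (SE 0.17, adjusted p = 0.610) and JOSD2 by -0.37 (SE 0.22, adjusted p = 0.675). The dimmer VSIG10L probe, A_33_P3395848, passed the unadjusted threshold with no overlap (-0.88, adjusted p = 0.514, limma). It was well above background in no DFX-treated tumor, and it is not in the counts, which take the brightest probe. Over the 6 lists, 4 of 67 tested genes were called at the unadjusted threshold, beside 7.98% of all tested genes.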

How the data were processed

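For each array the authors deposited the output of the scanner software (Agilent Feature Extraction, version 10.7.1.1 per the file headers and 9.5.1.1 in the submitters' processing notes and the methods), with linear intensities and a p-value of each spot against its background, not normalized between arrays. The authors also deposited a table of processed intensities on a linear scale with a median of 30.3 in each of the 6 columns. These values differed by a median of 0.378% to 0.833% per array from the quantile-normalized values computed here, and they were used as an alternative. The methods give log2 transformation, quantile normalization and removal of probes without detection p under 0.05 in all samples, and the study gives a cutoff of p under 0.05 with no adjustment named, taken here as unadjusted.

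Here the background-subtracted signal of 58717 non-control spots was log2-transformed and quantile-normalized. Spot values that the software flagged (1398 in all, for uneven spots or outliers among replicate spots) were dropped, and spots were averaged by probe. Probes with a median spot p under 0.05 on all 6 arrays were tested (31807 of 50599), by the moderated test of limma 3.58.1 (functions lmFit and eBayes, R 4.3.3, prior degrees of freedom 2.04), two-sided, and p-values were adjusted over these probes after Benjamini and Hochberg. The brightest tested probe stands for a gene. Groups and replicate numbers came from the sample labels. The labels do not say whether the tumors of a group came from separate mice, and the paper describes a random choice of tumors from each group. Each tumor was the unit of the tests, so the p-values weigh the group difference against the spread between these tumors. Arrays give no read depth, and their number limits the precision. Probes and motifs were read from the scanner files. The procedure was tested on simulated data with independent noise, made from probes above the median level. That test does not cover dim probes or single tumors that stand apart.

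The members and gene lists were chosen with earlier results of these data known. Of each list the genes named are the 4 with the lowest unadjusted p, less KLK3, DSC1 and XLOC_013119, which were well above background on no array, and other names are said to be chosen after their values were seen. The alternatives covered normalization, background correction, signal column, detection filters, outlier flags, the authors' values, the test, replicate and slide column blocks, array weights, the probe rule and each tumor left out. Replicate numbers did not pair the tumors (correlations of deviations 0.016 to 0.027).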

Additional observations from a re-analysis of the deposited data

How the results depend on the processing

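At the unadjusted threshold, 2675 probes were called, 4927 by the Kruskal-Wallis H test, 1418 with the slide column as a block and 1948 to 2733 with each tumor left out. The slide column block compares the groups within columns 2 and 4 only, so calls lost with it can reflect the fewer tumors compared. Lower calls were 58.8% of these probes, 42.6% with scaling to the 75th percentile and 71.8% with median scaling, which moved the median of all probes from -0.025 to -0.10. The number of called members, 1 (KLK10), became 0 with median scaling, an unmoderated variance, the replicate block and the slide column block, and was 0 to 1 with each tumor left out (without control tumor 1 the 1 called was KLK6, not KLK10). Of the 41 tested genes of the 5 functional lists 3 were called, 6 by the Kruskal-Wallis H test and 2 to 6 with each tumor left out (6 without control tumor 1). With 3 tumors a group the Kruskal-Wallis H test passes the threshold only where groups do not overlap. Its calls therefore count such separation, for which the exact permutation p is 0.1. With the replicate block, where the numbers do not pair the tumors, neither KLK10 nor KLK1 was called, and 2419 probes were. KLK10 stayed higher in all 21 alternatives (log2 difference 0.47 to 0.84) and was called in 13. KLK1 stayed higher in all 21 (0.27 to 0.50) and was called in 13, and TMPRSS2 stayed higher and was called in all 21 (0.82 to 1.23), while FLG stayed lower in all 21 and lost the threshold with the slide column as a block (-0.70). The direction turned for KLK8 with 75th percentile scaling (-0.0045), median scaling (-0.10), normexp (-0.035), the raw mean signal (-0.035), the authors' values (-0.0065), the slide column block (-0.12), array weights (-0.090), and without control tumor 2 or 3 or DFX-treated tumor 3 (range with each tumor left out -0.28 to 0.54). It turned for KLK7 with normexp (-0.050), the raw mean signal (-0.021) and without control tumor 3 or DFX-treated tumor 2 (range -0.28 to 0.57), for KLK6 with the mean of its probes (-0.073), and without control tumor 1 for KLK11 (range -0.20 to 0.076) and KLK12 (range -0.76 to 0.37). The cause was not tested. KLK13 and KLK14 kept their direction in every alternative that gave a value, and neither was called in any. Signal over background limits KLK5, KLK7 and KLK14.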

Other observations

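SPINK6, a further inhibitor of kallikreins that was not tested, read 5.66 in control tumor 1, where it was well above background, and 1.87 to 1.89 in the other tumors. The endothelial marker PECAM1 (probe A_23_P252471) read 5.35, 5.74 and 5.76 in control tumors and 7.00, 7.06 and 6.59 in DFX-treated tumors (log2 difference 1.27), while VWF (-0.58), CDH5 (-0.091) and KDR, which was well above background on no array, were not called and had overlapping groups. The summed level of the endothelial markers, in which VWF as the brightest weighed most, spanned 8.91 to 9.89 in control and 9.12 to 9.23 in DFX-treated tumors on the log2 scale. These genes were chosen after their values were seen.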
